A study of Mus musculus with 16 samples.

Results

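Gene expression was compared between freshly sorted bone endothelial cells (ECs) of mice with an EC-specific deletion of Lats2 and of littermate controls. The comparison rests on 4 of the 16 libraries of the study, 2 labelled Lats2 cKO and 2 labelled Lats2 Cont, and takes in the 12451 of 38922 gene names whose mean over these 4 libraries was at least 1 FPKM (fragments scaled to gene length and library depth). All mice of these 4 libraries were on a C57BL/6 background and carried loxP-flanked Lats2 alleles (Lats2flx/flx). The mutants were Cdh5CreERT2 positive and the controls Cdh5CreERT2 negative, so the groups differ both in Lats2 and in the presence of the Cre transgene. Cdh5CreERT2 is a Cre recombinase under the promoter of the endothelial gene Cdh5 that tamoxifen switches on. According to the methods, cells were taken from femur and tibia at 3 weeks of age and sorted with antibodies to CD31 and Emcn, which stain EC surfaces. Whether a library came from 1 animal or from pooled animals is not given in the sources used here, so p-values measure the spread between these libraries.

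Lats2 is a kinase of the Hippo pathway. Active Lats kinases phosphorylate the coactivators Yap1 and Taz (gene Wwtr1), which are then held in the cytoplasm or degraded. Without that restraint both enter the nucleus, bind TEAD transcription factors and raise genes of cell adhesion, matrix and growth. Bone holds different capillary beds, the column-shaped vessels of the metaphysis near the growth plate and the sinusoids of the marrow cavity, whose ECs take up waste molecules from blood and let blood cells pass.

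Values were tested gene by gene with limma on log2(FPKM + 1), and fold changes are log2 differences of cKO minus control on that scale, where low genes appear to change less than they do. A gene is said to have risen or fallen where its Benjamini-Hochberg adjusted p was under 0.05 and its log2 fold change was over 0.5 in size. A stricter threshold of 0.01 is named where it is used. Reads recovered from the FPKM values numbered 4729880 to 7067607 a library, and 67.6% to 69.3% of the low values lay within 0.02 reads of a whole number. A principal component analysis of the 500 most variable genes put 78.9% of the variance on a first component, with the controls at -26.6 and -23.1 and the mutants at 16.1 and 33.6, so that cKO replicate 2 lay farther from the controls than cKO replicate 1. Mitochondrially encoded genes held 2.72% and 2.84% of all FPKM in the controls against 5.71% and 8.52% in the mutants. The most abundant gene of all 4 libraries, the small noncoding RNA gene Gm23935, stood at 6093 and 7629 FPKM against 15846 and 26667 FPKM. The part of these differences between libraries in the results was not tested.

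In these libraries the value summed over the targeted gene was not clearly lower. Lats2, on chromosome 14 of GRCm38 from 57689662 to 57758388, measured 23.4 and 24.03 FPKM in the controls and 19.2 and 19.2 FPKM in the mutants, or -0.29 as a log2 fold change (limma adjusted p = 0.125, SE 0.11). The groups did not overlap, but the difference did not pass the test. In the annotation an overlapping gene model on that strand, Gm49361, covers 42.4% of its exon bases. The deleted part of the gene is not given in the sources used here, and values summed over the whole gene cannot show the loss of a part. The study itself reports a significant decrease of Lats2 transcript in freshly isolated mutant bone ECs. It also reports more Yap1 and Taz protein in metaphyseal vessels of the mutants. The related kinase gene Lats1 had 1.84 and 2.17 FPKM in the controls and 1.34 and 1.60 FPKM in the mutants (log2 fold change -0.28, adjusted p = 0.374). Yap1 was low in all 4 libraries, at 2.13 and 2.14 FPKM and 2.12 and 1.95 FPKM. Wwtr1, which encodes Taz, was more abundant and rose from 53.8 and 58.9 FPKM to 83.3 and 92.5 FPKM (log2 fold change 0.63, adjusted p = 0.0257). Of the 24 tested genes of the Hippo pathway, Wwtr1 and the angiomotin family gene Amotl2 (log2 fold change 0.88) rose and 0 fell by limma. Of these 24 genes 11 had a positive and 13 a negative fold change. The 4 genes set as marks of this comparison were chosen with their values known and are given as a description. Cyr61, a matricellular gene and a standard readout of Yap1 and Taz, rose from 28.3 and 44.3 FPKM to 316 and 537 FPKM. Angpt2, which encodes a ligand of the receptor Tek, rose from 8.06 and 8.15 FPKM to 172 and 478 FPKM. Lrg1, a secreted glycoprotein gene, fell from 2069 and 2024 FPKM to 409.5 and 402 FPKM, and Gpm6a, a membrane glycoprotein gene best known from neurons, fell from 326 and 305 FPKM to 35.8 and 26.01 FPKM. In all 4 the groups did not overlap, which was so for 68.2% of all tested genes.

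Endothelial genes were abundant in both groups. The summed level of 35 endothelial identity genes was 9560 and 9974 FPKM in the controls and 9352 and 9100 FPKM in the mutants. Cdh5, whose promoter drives the Cre, had 229 and 267 FPKM and 276 and 276 FPKM, and Emcn, used in the sort and named here after its values were seen, had 157 and 143 FPKM and 172 and 162 FPKM. Pecam1, which encodes the other sort antigen CD31, rose from 188 and 207 FPKM to 346 and 369 FPKM. Within this list 7 genes rose and 4 fell, against 11.5% and 9.78% of all genes tested. Cd34 rose from 230.1 and 258 FPKM to 663 and 592 FPKM and Vwf, which encodes von Willebrand factor, from 1.86 and 5.86 FPKM to 16.9 and 23.97 FPKM. The receptor genes Tek and Kdr fell, Tek from 215 and 213 FPKM to 107 and 65.2 FPKM and Kdr from 324 and 338 FPKM to 196 and 149.7 FPKM.

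Transcripts of blood cells were lower in the mutant libraries. The summed FPKM of 15 erythroid genes was 4020 and 2768 in the controls against 1476 and 292 in the mutants, with 8 of 14 tested genes falling and 0 rising. Neutrophil genes summed to 3219 and 2223 FPKM against 1008 and 794 FPKM, and 11 of 17 fell. Lymphocyte genes summed to 327 and 272 FPKM against 83.4 and 56.6 FPKM, and 11 of 13 fell, among them the immunoglobulin heavy chain gene Ighm with 178 and 146 FPKM and 37.1 and 22.98 FPKM. The lists of all 5 blood cell kinds held 68 tested genes, of which 35 fell and 0 rose by limma. In bulk samples fewer cells of a type and less RNA per cell cannot be told apart. Macrophage genes (761 and 637 FPKM against 459 and 175 FPKM) and genes of megakaryocytes and platelets (62.7 and 165 FPKM against 23.4 and 14.3 FPKM) were lower in sum as well, though 1 of 14 tested macrophage genes fell, Ly6c2. Of the blood cell markers, 2 macrophage genes were at 0 in all 4 libraries and 0 genes of the other 4 lists. Osteoclast genes and osteoblast genes overlapped between the groups, at 76.8 and 79.1 FPKM against 103 and 74.8 FPKM for the former and 102 and 15.7 FPKM against 46.1 and 73.5 FPKM for the latter. The summed level of 22 pericyte and stromal genes was 614 and 723 FPKM against 431 and 422 FPKM, and most of that sum in the controls came from Kcnj8 and Abcc9, which are described with the ion channels.

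**Figure D1:**
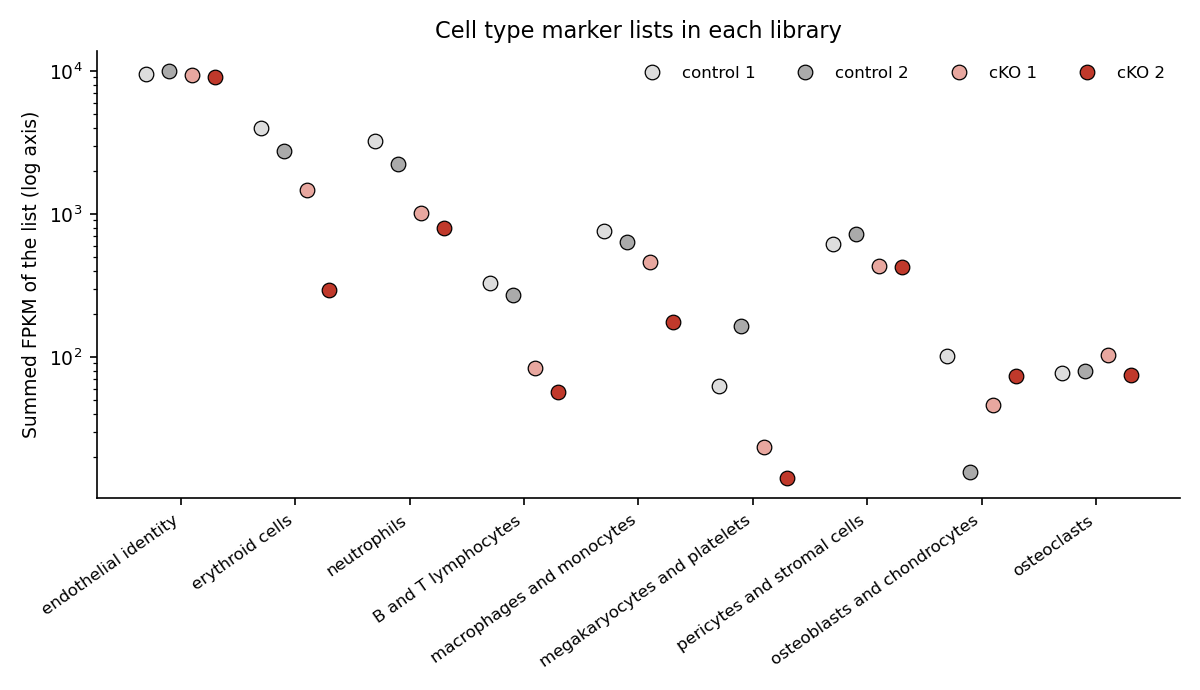
Summed FPKM of cell type marker lists (log axis) in each of the 4 libraries, grey for controls and red for Lats2 cKO. Endothelial identity genes stay between 9100 and 9974 FPKM, while the sums of erythroid, neutrophil and lymphocyte genes are lower in both cKO libraries than in both controls.

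At the threshold of 0.01, 106 genes were higher and 151 lower in the mutants, which is 0.851% and 1.21% of the genes tested, or 2.06% together. At 0.05 there were 1427 higher and 1218 lower genes, or 11.5% and 9.78% (21.2% together), against which the counts for gene families below are to be read. The median fold change over all genes was -0.0031. Many of these genes were more extreme in cKO replicate 2, since 82.1% of the genes that rose were higher in replicate 2 than in replicate 1 and 25.6% of those that fell were. Leaving out a control library left 0 genes at either threshold by limma, with 2724 and 2878 genes at an unadjusted p under 0.05 against 4805 with all 4 libraries. The lone control is then assumed to vary like the mutants. Leaving out cKO replicate 2 left 474 higher and 457 lower genes at 0.05, and leaving out cKO replicate 1 left 1441 and 1255.

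**Figure D2:**
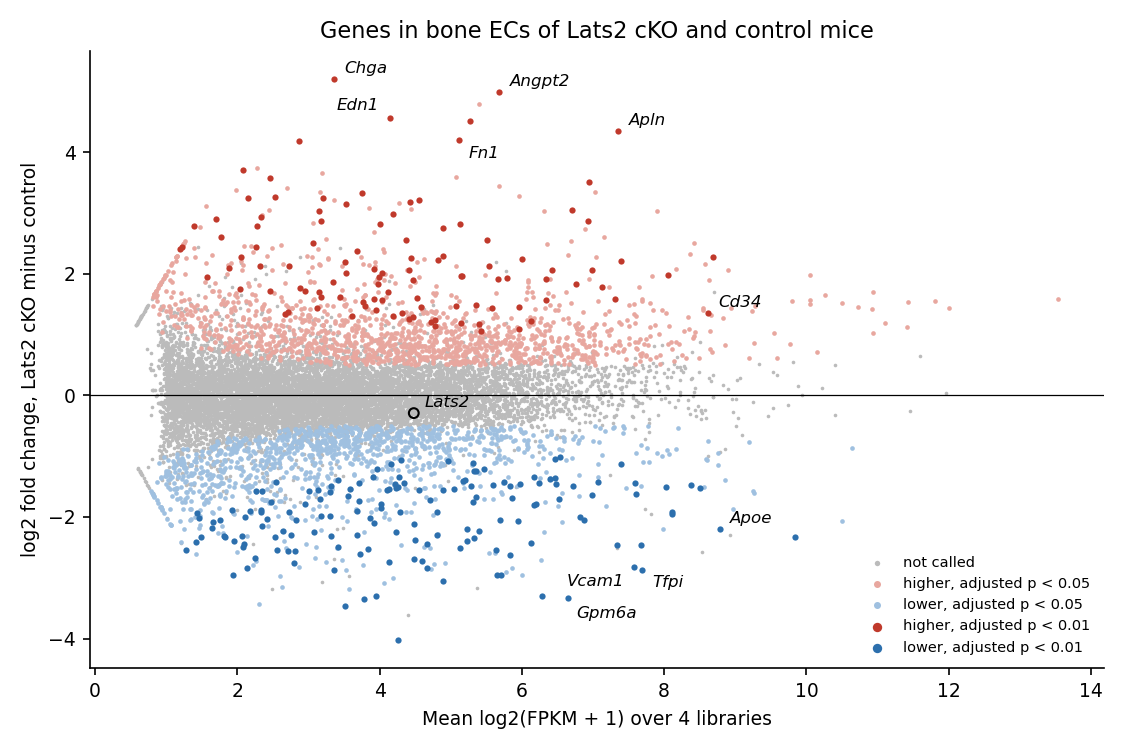
Mean level, log2(FPKM + 1) over 4 libraries, on the x axis against the log2 fold change of Lats2 cKO minus control on the y axis, for 12451 genes. Colored genes pass the adjusted p in the legend and a fold change of 0.5 in size, in which 1427 rose and 1218 fell, and the open circle marks Lats2 at -0.29.

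The 25 largest increases at 0.01 included genes for secreted peptides, granule proteins and matrix. Chga, on chromosome 12 of GRCm38 from 102554969 to 102565028, encodes chromogranin A, a granule protein known from neuroendocrine cells. It had 0.320 and 1.16 FPKM in the controls and 61.7 and 61.05 FPKM in the mutants, or 5.21 as a log2 fold change (adjusted p = 0.00574, SE 0.25). Cpe, which encodes carboxypeptidase E, a processing enzyme of peptide hormones in such granules, rose from 4.43 and 8.38 FPKM to 72.5 and 55.9 FPKM. Both granule genes were low in the controls, and their levels in the mutants were close to each other. Angpt2, on chromosome 8 of GRCm38 from 18690263 to 18741562, had the next largest fold change of 4.98 (SE 0.47, adjusted p = 0.00817). Fn1, on chromosome 1 of GRCm38 from 71585520 to 71653200, encodes the matrix protein fibronectin and rose from 5.10 and 9.59 FPKM to 132 and 164 FPKM (log2 fold change 4.21, SE 0.28). Apol7d, annotated as antisense, lies on chromosome 1 from 71652837 to 71662843 and so overlaps Fn1, which is on the opposite strand. It rose from 0.385 and 1.53 FPKM to 19.1 and 14.99 FPKM, and 14.0% of its exon bases lie over a gene on the other strand. The strand setting of the counts is not given, and the part of Fn1 reads in its rise was not tested.

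Several of the other genes in this group work at membranes or in redox reactions. Nox4, an NADPH oxidase that makes hydrogen peroxide, rose from 0.759 and 0.437 FPKM to 14.1 and 22.5 FPKM. Gpx8, a peroxidase family gene of the endoplasmic reticulum, rose from 4.15 and 2.48 FPKM to 32.6 and 52.8 FPKM. Kdelr3, a receptor that returns proteins to that compartment, rose from 4.97 and 5.11 FPKM to 36.2 and 48.02 FPKM (log2 fold change 2.82, SE 0.17). Myof, a membrane repair gene, and Tmem252, a transmembrane protein gene, had fold changes of 3.25 and 3.25. The prion protein gene Prnp stood out by level, since it went from 30.7 and 40.8 FPKM to 259 and 349 FPKM. Its neighbor Prnd had 1.001 and 0.681 FPKM and 9.49 and 17.6 FPKM, but a same-strand neighbor covers 97.2% of its exon bases, so its reads cannot be told from that gene's. Ch25h, which makes 25-hydroxycholesterol, had a fold change of 3.03, and Rgs16, which switches off G protein signals, had 2.87. Arhgef28, an exchange factor gene of small GTPases, had 3.15. Meox1, a homeobox gene, rose from 10.01 and 14.9 FPKM to 73.4 and 116 FPKM. The less characterized genes of the 25 were 4930502E18Rik (4.18), Rnf39 (3.70), AU021092 (3.21) and 1700019G06Rik (2.86), each given with its log2 fold change.

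**Figure D3:**
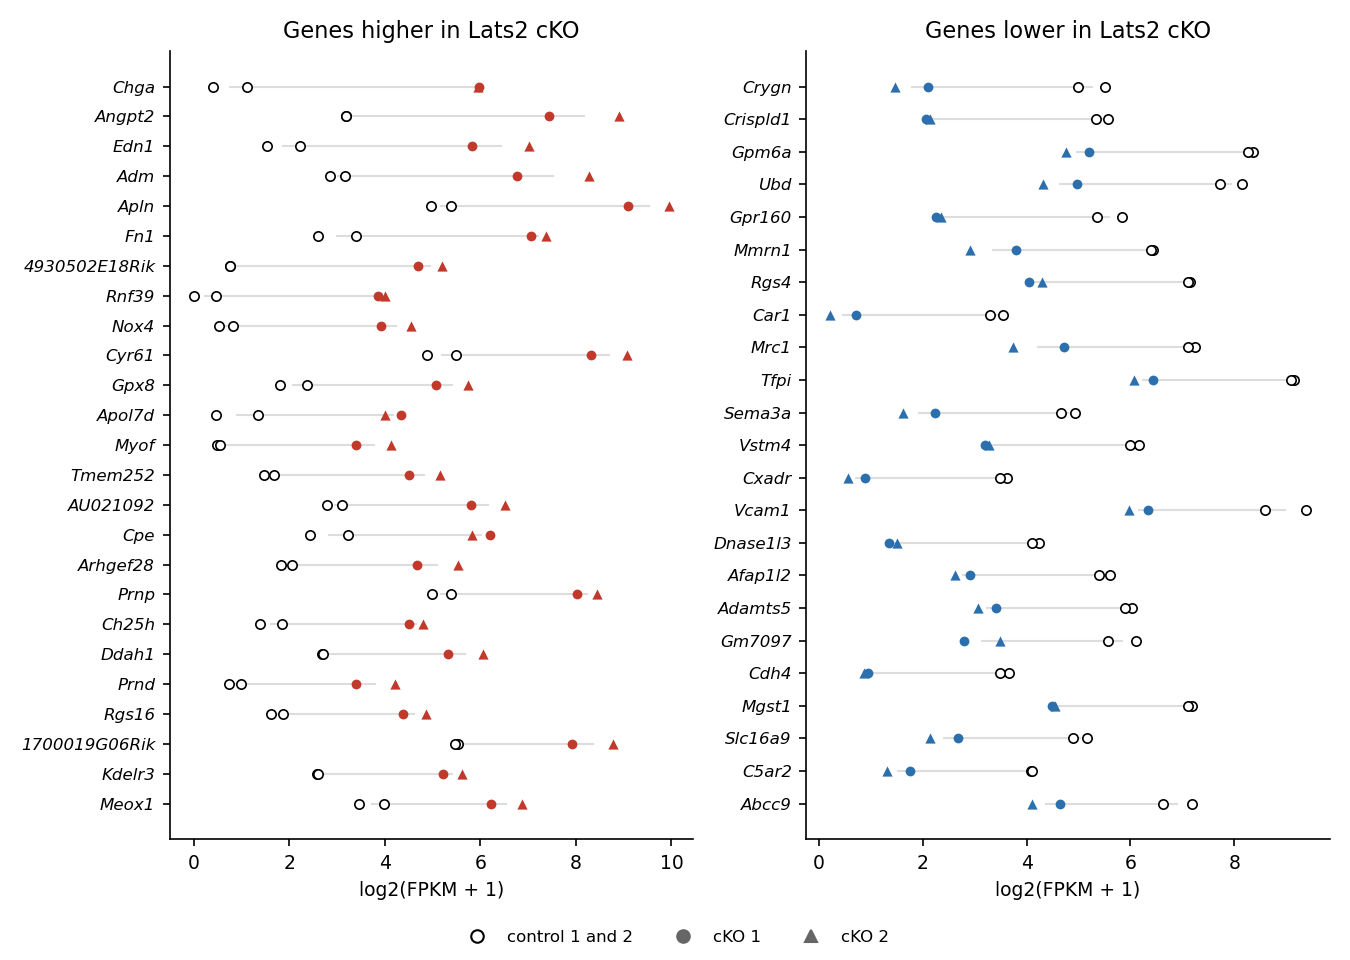
Level in each library, log2(FPKM + 1), of genes from the 25 with the largest increase (left) and the 25 with the largest decrease (right) of those called at 0.01 and averaging 5 FPKM or more. Open circles are controls, filled circles cKO replicate 1 and triangles cKO replicate 2, and the grey line joins the group means.

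Genes of many kinds were among the 25 largest decreases at 0.01. Gpm6a, on chromosome 8 of GRCm38 from 54954843 to 55060871, had a fold change of -3.33 (SE 0.18). Crygn, a crystallin family gene, fell from 30.8 and 44.9 FPKM to 3.30 and 1.75 FPKM and the secreted protein gene Crispld1 from 46.3 and 39.4 FPKM to 3.17 and 3.43 FPKM. Rgs4, a regulator of G protein signaling like Rgs16 above, went the other way from it and fell from 141 and 137 FPKM to 15.6 and 18.5 FPKM (log2 fold change -2.96, SE 0.13). Tfpi, which encodes the tissue factor pathway inhibitor of coagulation, was among the more abundant of these genes and fell from 566 and 548 FPKM to 84.97 and 66.5 FPKM. Ubd, an interferon-inducible ubiquitin-like gene, fell from 282 and 211 FPKM to 30.2 and 18.99 FPKM. Vcam1, the adhesion molecule that holds blood cells to marrow ECs, fell from 666 and 384 FPKM to 79.8 and 62.1 FPKM.

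Receptor and extracellular genes made up much of the remainder. The orphan receptor gene Gpr160 had a log2 fold change of -3.29, the mannose receptor gene Mrc1 -2.95, the guidance ligand gene Sema3a -2.87 and the complement receptor gene C5ar2 -2.57. The matrix and adhesion genes Mmrn1, Adamts5 and Cdh4 had -3.06, -2.73 and -2.67. Cxadr, a junctional virus receptor gene, fell from 11.3 and 10.2 FPKM to 0.840 and 0.478 FPKM, and Dnase1l3, a secreted nuclease gene, from 17.9 and 16.2 FPKM to 1.54 and 1.83 FPKM. Enzyme genes in this group were Mgst1 (-2.63), which conjugates glutathione, and Car1 (-2.96), a carbonic anhydrase of red cells that is on the erythroid list above. Slc16a9, a monocarboxylate transporter family gene, had -2.61 and the antisense transcript Gm7097 inside it -2.69, and the whole of Gm7097 lies over the exons of Slc16a9. Vstm4 (-2.84) and Afap1l2 (-2.73) belonged to it too, as did Abcc9, described below with its channel partner.

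Promoters were examined because TEAD factors bind DNA at a short motif. RefSeq promoters of GRCm38.p6, from 250 bases before to 50 bases after the start of transcription, were found for 9092 of the 12451 genes. The letters GGAATG, on either strand, occurred in 11.6% of all these promoters, in 10 of 66 (15.2%) of the genes higher at 0.01 and in 12 of 115 (10.4%) of the genes lower at 0.01. At 0.05 the shares were 11.6% of 991 higher and 11.4% of 889 lower genes, so the larger sets had the share of all genes. A consensus of the interferon-stimulated response element was in 3.08% of all promoters, in 6.96% of the lower genes at 0.01 (8 of 115) and in 3.03% of the higher ones (2 of 66). The TATA box letters TATAAA were in 6.80% of all, in 13.6% of the higher and in 10.4% of the lower genes at 0.01. The AP-1 letters TGANTCA were in 4.70% of all, 6.06% of the higher and 5.22% of the lower genes. A match is a description of the sequence and not a bound site. The stretches around the GGAATG match are shown for 3 of the 25 largest increases and for the channel subunit gene Abcc9, which fell. Gpx8 among the largest increases and Gpm6a and Vstm4 among the largest decreases also had a match before the start and are not shown. The stretches are read 5′ to 3′ on the strand of the gene, with the match on either strand in capitals.
Edn1, chr13:42301226-42301334, plus strand: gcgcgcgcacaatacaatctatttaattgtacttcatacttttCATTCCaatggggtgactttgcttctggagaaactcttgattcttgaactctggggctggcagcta
Cyr61, chr3:145650023-145650148, minus strand: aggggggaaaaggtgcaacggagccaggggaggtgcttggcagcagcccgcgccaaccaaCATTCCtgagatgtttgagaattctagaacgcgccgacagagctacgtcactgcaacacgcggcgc
Prnp, chr2:131909771-131909896, plus strand: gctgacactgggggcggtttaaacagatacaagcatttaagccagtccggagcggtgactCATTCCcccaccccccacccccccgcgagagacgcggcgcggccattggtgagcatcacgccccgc
Abcc9, chr6:142702428-142702524, minus strand: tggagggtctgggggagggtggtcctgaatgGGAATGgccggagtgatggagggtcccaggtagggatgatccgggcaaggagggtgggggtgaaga
The match began 207 bases before the start in Edn1, 103 bases before it in Cyr61, 97 bases in Prnp and 219 bases in Abcc9.

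Genes for peptides that set vessel tone had some of the largest increases. Of 24 tested vasoregulator genes, 11 rose and 6 fell, with a median log2 fold change of 0.45. Edn1, on chromosome 13 of GRCm38 from 42301476 to 42307990, encodes the constrictor endothelin-1 and rose from 1.89 and 3.66 FPKM to 55.95 and 129 FPKM (log2 fold change 4.55 with an SE of 0.44 and an adjusted p of 0.009). Adm, on chromosome 7 of GRCm38 from 110627661 to 110629820, encodes the dilator adrenomedullin and rose from 6.26 and 8.03 FPKM to 109 and 310.5 FPKM. Apln, on chromosome X of GRCm38 from 48025146 to 48034853, encodes the ligand of the apelin receptor and was the most abundant of the 3, from 30.5 and 41.1 FPKM to 546 and 993 FPKM. All 3 were higher in cKO replicate 2 than in replicate 1, and both mutants lay far above both controls. On the side of the receptors, Ednrb, which clears and senses endothelin, rose from 27.1 and 27.9 FPKM to 102 and 113 FPKM, and Calcrl, the receptor for adrenomedullin, fell from 65.8 and 75.1 FPKM to 37.8 and 30.7 FPKM, while its partners Ramp2 and Ramp3 rose, with log2 fold changes of 0.56 and 0.55. A same-strand gene covers 33.4% of the exon bases of Ramp2. The natriuretic peptide receptor genes Npr1, Npr2 and Npr3 all fell, with log2 fold changes of -1.14, -0.72 and -1.42. Nitric oxide genes rose, Nos3 from 48.6 and 60.7 FPKM to 84.5 and 82.01 FPKM, the inducible synthase gene Nos2 from 4.32 and 7.66 FPKM to 14.2 and 17.9 FPKM, and Ddah1, which degrades an inhibitor of nitric oxide synthases, from 5.40 and 5.57 FPKM to 38.9 and 65.6 FPKM. Of the exon bases of Nos3, 32.3% lie over a gene on the other strand. The prostanoid synthesis genes Ptges and Ptgs1 fell, Ptges from 12.8 and 12.6 FPKM to 3.50 and 1.53 FPKM and Ptgs1, which encodes cyclooxygenase 1, from 83.00 and 82.02 FPKM to 53.3 and 36.9 FPKM. Ace, which makes angiotensin II, rose from 4.03 and 7.28 FPKM to 32.4 and 24.1 FPKM.

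Both subunit genes of a potassium channel fell together. Kcnj8 encodes the pore and Abcc9 the sulfonylurea receptor of the ATP-sensitive channel of vessels. Kcnj8 fell from 359 and 398 FPKM to 82.6 and 55.4 FPKM (log2 fold change -2.47) and Abcc9 from 97.8 and 145 FPKM to 23.9 and 16.2 FPKM (-2.54). Both are also on the pericyte and stromal list, of which 5 other members rose, including Mcam from 86.7 and 100.5 FPKM to 199.6 and 226 FPKM. The pericyte receptor gene Pdgfrb was low throughout, at 0.587 and 0.215 FPKM and 1.69 and 3.63 FPKM. Of 44 tested ion channel genes, 5 rose and 6 fell. The potassium channel genes Kcne3 and Kcnj2 rose, from 15.4 and 20.2 FPKM to 89.3 and 133 FPKM and from 0.775 and 0.772 FPKM to 2.82 and 4.98 FPKM, as did the mechanosensitive channel gene Piezo2, from 2.57 and 2.44 FPKM to 6.82 and 5.82 FPKM. Kcnn4, a calcium-activated channel gene, fell from 7.41 and 7.60 FPKM to 3.26 and 2.67 FPKM.

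Many growth factor and growth factor receptor genes rose. Among 22 tested genes of PDGF, FGF, EGF, HGF and related factors and receptors, 14 rose, 1 fell, and the median was 1.07. Cyr61 and Ctgf are on this list and also among the targets the study examined, so their part in the count is not independent. The EGF receptor ligand gene Hbegf rose from 2.96 and 3.47 FPKM to 10.3 and 20.4 FPKM and the stem cell factor receptor gene Kit from 9.75 and 15.7 FPKM to 31.2 and 32.8 FPKM. The receptor genes Fgfr1, Met and Ret had fold changes of 1.03, 1.03 and 1.62, and the falling gene was Erbb2, from 17.9 and 19.04 FPKM to 9.87 and 8.71 FPKM. Placental growth factor, Pgf, which binds a VEGF receptor, rose from 8.51 and 8.93 FPKM to 67.8 and 198 FPKM, whereas Vegfb and the receptor gene Flt4 fell, from 12.8 and 12.4 FPKM to 6.27 and 7.63 FPKM and from 115 and 154 FPKM to 39.6 and 35.04 FPKM. Of the BMP and TGF-beta pathway, 6 of 37 tested genes rose and 6 fell. The risers were ligands or secreted partners, namely Tgfb2 (from 0.553 and 1.14 FPKM to 9.42 and 18.5 FPKM), Bmp4 (from 6.05 and 6.35 FPKM to 25.7 and 53.6 FPKM), Bmp6 (from 4.25 and 5.02 FPKM to 29.1 and 27.3 FPKM), Inhbb (1.90), Bmp1 (1.61) and Fstl1 (1.23). The genes that fell were Tgfbr3, Bambi and Acvr1, whose products sit in the cell membrane, and the BMP response genes Id2 (from 94.8 and 107 FPKM to 40.7 and 30.7 FPKM), Id4 (-1.997) and Smad6 (-0.58).

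Genes of insulin-like growth factors and their binding proteins had 4 rising and 3 falling of 14. Igfbp3 and Igfbp7 rose, from 99.3 and 131 FPKM to 338 and 596 FPKM and from 1381 and 1520 FPKM to 2781 and 3962 FPKM, and Igfbp2, Igfbp4 and Igfbp5 fell, with log2 fold changes of -1.38, -1.04 and -2.02. In the Wnt pathway 5 of 25 tested genes rose and 5 fell. The secreted Wnt inhibitor genes Sfrp1, Dkk2 and Frzb were low in controls and rose, Frzb, listed at 0 in a control, from 0 and 0.0519 FPKM to 2.54 and 5.34 FPKM, Dkk2 from 0.816 and 1.36 FPKM to 6.24 and 5.003 FPKM and Sfrp1 from 0.414 and 0.346 FPKM to 2.18 and 2.67 FPKM. The Wnt export gene Wls and the receptor gene Fzd8 fell, with fold changes of -0.91 and -0.99. In the Notch pathway 2 of 24 rose and 4 fell, with the ligand gene Jag2 at 0.72 and the Notch-modifying enzyme gene Lfng at -1.05. The Notch shares are near those of all genes.

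Collagen and basement membrane genes rose more often than genes at large. Of 16 tested collagen genes 8 rose and 1 fell (median 1.06), and of 24 genes for laminins and other basement membrane proteins 9 rose and 3 fell (median 0.40). Col4a1 and Col4a2, the main chains of endothelial basement membrane, rose from 416 and 644 FPKM to 1473 and 1577 FPKM and from 249 and 353 FPKM to 768 and 849 FPKM. Col15a1 (chromosome 4 of GRCm38 from 47208161 to 47313167) rose from 9.88 and 15.6 FPKM to 61.7 and 67.4 FPKM (log2 fold change 2.29, SE 0.22) and Col18a1 from 51.8 and 61.8 FPKM to 229 and 181 FPKM. The laminin chain genes Lama4, Lamb1 and Lamc1 rose by 1.96, 1.97 and 1.14 on the log2 scale, the perlecan gene Hspg2 by 1.19 and the elastin gene Eln by 1.70. Among those that fell were Npnt, an integrin ligand gene, from 168 and 177 FPKM to 53.1 and 23.8 FPKM, and Col6a3, from 10.2 and 14.3 FPKM to 3.39 and 2.12 FPKM. Integrin genes moved less, 2 rising and 1 falling of 17, with Itga3 at 1.62, Itgb1 at 0.61 and Itga8 at -1.58. Matrix-degrading enzymes and their inhibitors had 3 rising and 6 falling of 33. Timp3, an inhibitor gene, fell from 142 and 151 FPKM to 58.95 and 47.1 FPKM and Timp1 rose from 6.79 and 6.44 FPKM to 11.9 and 12.7 FPKM. Of the exon bases of Timp3, 21.3% overlap a gene on the other strand. Mmp8, another that fell, is on the neutrophil list.

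Coagulation genes moved in both directions, 13 up and 5 down of 26. Anticoagulant genes of the vessel wall fell, the thrombomodulin gene Thbd from 546 and 538 FPKM to 161 and 122 FPKM, the protein S gene Pros1 from 178 and 170.3 FPKM to 77.8 and 62.4 FPKM, and Tfpi as given above. The protein C receptor gene Procr went against them and rose from 24.8 and 19.9 FPKM to 49.3 and 61.3 FPKM. F8, which encodes factor VIII, fell from 57.6 ± 2.97 FPKM to 9.86 ± 4.45 FPKM (mean ± SD, n = 2). Plat, the tissue plasminogen activator, rose from 17.9 and 17.2 FPKM to 40.7 and 38.7 FPKM. The plasminogen receptor genes Anxa2 and S100a10, whose proteins form a complex, rose from 217 and 235 FPKM to 528 and 714 FPKM and from 70.6 and 77.95 FPKM to 222 and 300.1 FPKM. Protease-activated receptor genes rose as well, with fold changes of 0.76 for F2r and 0.81 for F2rl3, whose proteins thrombin activates, and 2.43 for F2rl1, whose protein trypsin-like proteases activate.

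Annexins and S100 proteins, calcium binders at membranes, rose beyond that pair. Of 19 tested genes 9 rose, including Anxa6 from 62.9 and 59.3 FPKM to 226 and 292 FPKM, S100a6 from 41.4 and 38.3 FPKM to 267 and 644 FPKM and S100a11 from 129 and 158 FPKM to 565 and 1161 FPKM. The 2 that fell were S100a8 and S100a9, which are neutrophil genes.

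Genes of the actin cytoskeleton rose often. Of 56 tested genes of actin, myosin light chains, tropomyosins and their binding proteins, 33 rose and 0 fell by limma, 47 had a positive fold change, and the median was 0.77. The most abundant members rose, the actin gene Actb from 1322 and 1435 FPKM to 2603 and 3017 FPKM and the thymosin gene Tmsb4x from 1953 and 1754 FPKM to 3485 and 4652 FPKM. Tmsb10, its relative, rose from 56.7 and 60.7 FPKM to 207 and 405 FPKM. Members typical of smooth muscle were low but rose, Acta2 from 0.339 and 2.17 FPKM to 9.22 and 9.93 FPKM, Tagln from 5.32 and 9.12 FPKM to 22.9 and 37.2 FPKM and Myl9 from 4.84 and 8.25 FPKM to 26.9 and 35.6 FPKM, and 67.9% of the exon bases of Tagln lie over a gene on the other strand. Ajuba, a scaffold protein gene that also binds Lats kinases, rose from 7.11 and 8.49 FPKM to 23.98 and 26.6 FPKM. The transcription factor gene Srf itself had a fold change of 0.60. Of 11 tested genes of caveolae and diaphragms 4 rose and 1 fell. Those that rose included Cav1, from 181 and 297 FPKM to 932 and 1009 FPKM, Ptrf from 61.1 and 98.04 FPKM to 191 and 273 FPKM and Ehd4 from 24.7 and 32.9 FPKM to 116 and 164 FPKM. Ehd3, a relative of Ehd4, fell from 37.7 and 47.6 FPKM to 19.3 and 17.4 FPKM, and the diaphragm gene Plvap did not pass the test at 3097 and 3024 FPKM and 2511 and 2620 FPKM. Of 31 junction genes 6 rose and 1 fell, with the largest change in the cadherin gene Cdh13, from 8.15 and 13.2 FPKM to 62.1 and 92.1 FPKM.

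**Figure D4:**
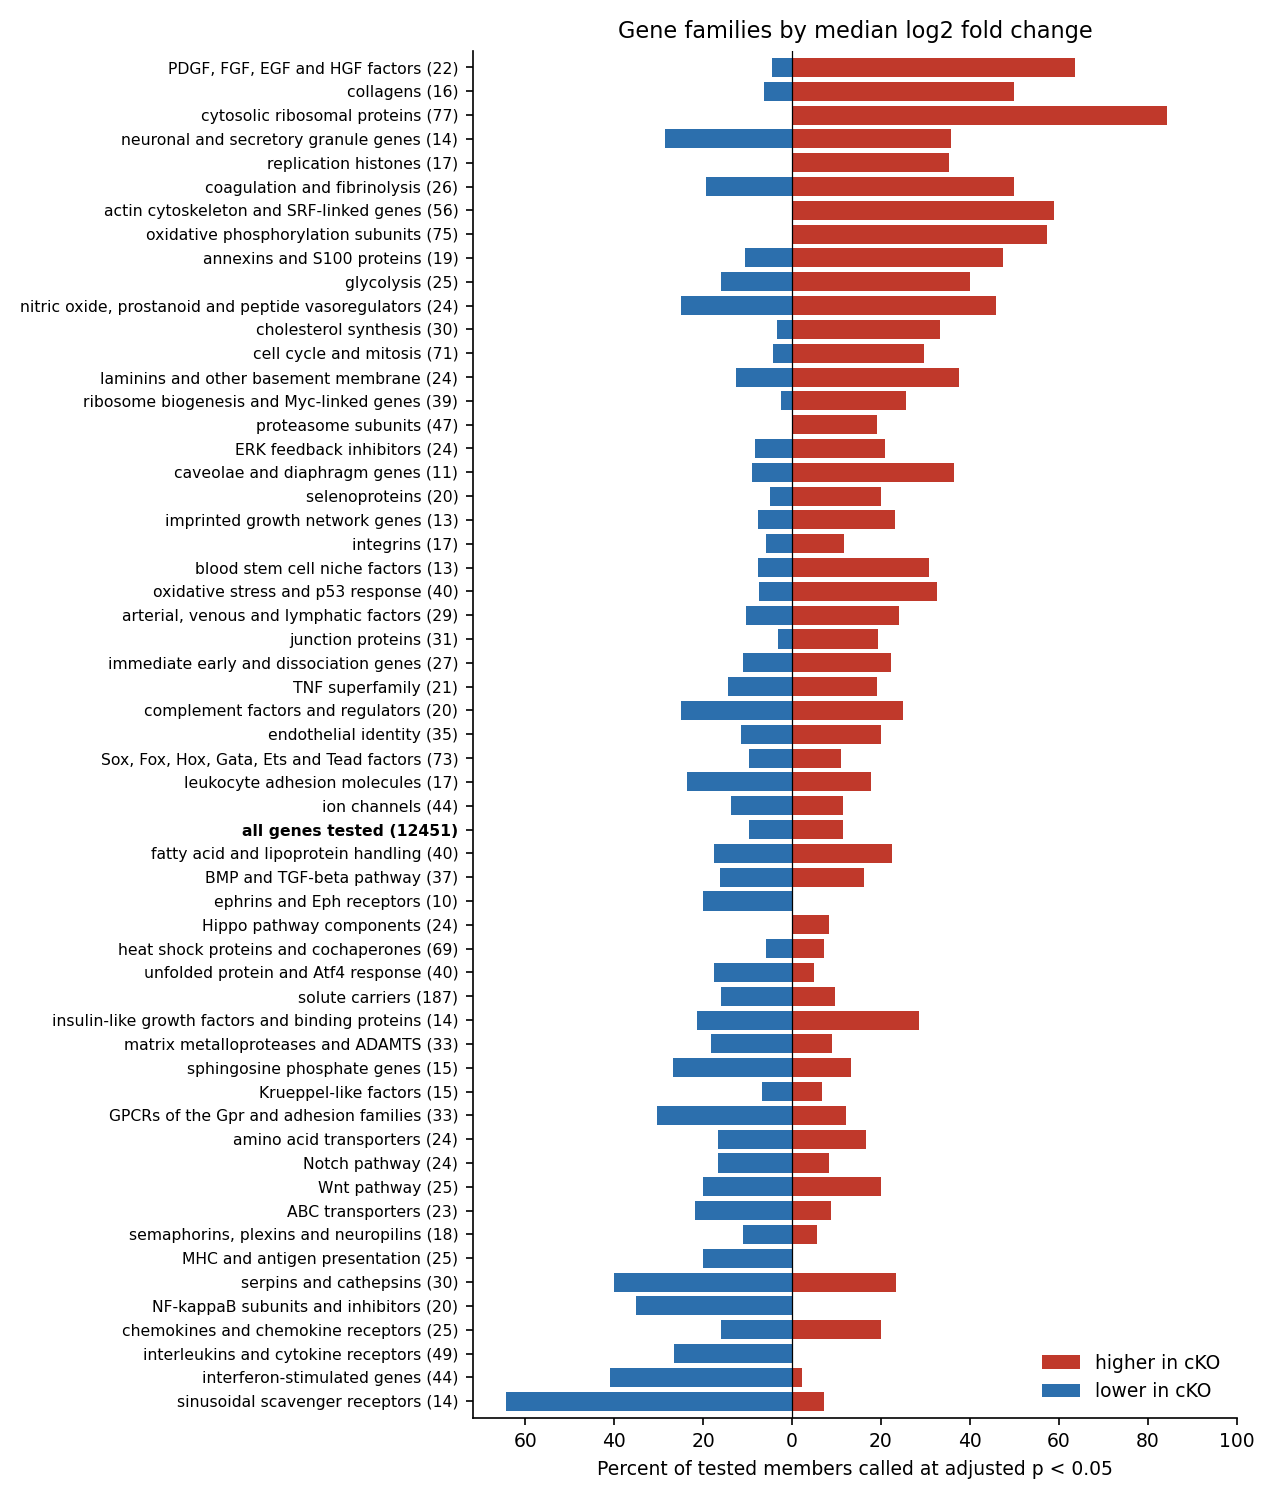
Share of the tested members of each gene family that rose (red, to the right) or fell (blue, to the left) at an adjusted p under 0.05 and a fold change over 0.5 in size, in percent, for families with at least 10 tested members (number in brackets), ordered by median log2 fold change. All genes tested, in bold, had 11.5% rising and 9.78% falling, ribosomal protein genes 84.4% rising and scavenger receptor genes 64.3% falling.

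Genes of the protein synthesis and respiration machinery rose more often than genes at large. Of 77 tested cytosolic ribosomal protein genes 65 rose and 0 fell by limma, with a median of 1.03, and 76 of them had a positive fold change. Rpl32 rose from 220.4 and 194 FPKM to 468 and 542 FPKM and Rps26 from 46.8 and 45.1 FPKM to 124 and 155 FPKM. Many of these genes have near-identical pseudogenes that can share reads. Of 75 nuclear genes for oxidative phosphorylation subunits 43 rose and 0 fell (median 0.71), and of 47 proteasome genes 9 rose and 0 fell (median 0.35). Exon lengths had a median of 1781 bases for the ribosomal protein genes and 1718 for the oxidative phosphorylation genes against 4016 for all genes, and short genes were higher in the mutants in general. Genes with 500 to 1000 exon bases had a median log2 fold change of 0.33 and those with 4000 to 8000 exon bases one of -0.087. With a smoothed trend on exon length removed from every library, 65 ribosomal protein genes rose, 1 fell and their median was 0.86, while the count of rising oxidative phosphorylation genes went from 43 to 27 and their median to 0.49. Genes of ribosome making and genes linked to Myc, taken as 1 list, moved less, 10 rising and 1 falling of 39. Myc rose from 15.3 and 14.4 FPKM to 23.99 and 31.6 FPKM, and the fibrillarin gene Fbl was at 0.98. Odc1, which starts polyamine synthesis, rose from 43.00 and 57.1 FPKM to 139 and 142 FPKM. The gene of this list that fell was the transferrin receptor gene Tfrc, from 4.52 and 5.27 FPKM to 2.36 and 1.46 FPKM. The part of the lower erythroid transcripts in its fall was not tested.

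Metabolic genes followed no common direction. Of 25 glycolysis genes 10 rose and 4 fell. Enzyme genes among those that rose were Eno1 from 51.97 and 54.5 FPKM to 119 and 170.1 FPKM, Ldha from 165 and 197 FPKM to 348 and 458 FPKM and Tpi1 from 40.1 and 44.4 FPKM to 120.2 and 220.1 FPKM, and those that fell were the lactate transporter gene Slc16a1, from 60.03 and 62.9 FPKM to 13.8 and 7.04 FPKM, the kinase genes Pdk1 and Pdk2, which hold back pyruvate oxidation (-0.99 and -0.74), and Ldhb (-0.96). Genes of cholesterol metabolism rose more often than they fell, 10 up and 1 down of 30. Sqle, which encodes squalene epoxidase, rose from 2.83 and 3.58 FPKM to 11.2 and 8.44 FPKM and Fdps from 17.6 and 16.1 FPKM to 39.5 and 42.7 FPKM. A same-strand gene covers 26.7% of the exon bases of Fdps. The gene that fell, Mylip, encodes a ubiquitin ligase, and it went from 104 and 76.6 FPKM to 15.1 and 18.6 FPKM. Among 40 lipid handling genes 9 rose and 7 fell. Apoe, the apolipoprotein E gene, fell from 1011 and 879.6 FPKM to 218 and 192 FPKM, the endothelial lipase gene Lipg from 33.97 and 32.3 FPKM to 5.95 and 4.08 FPKM and the nuclear receptor gene Pparg from 292 and 252 FPKM to 96.5 and 60.4 FPKM. Fabp5, a fatty acid carrier gene, rose from 5.80 and 9.80 FPKM to 47.5 and 50.9 FPKM, and Gpihbp1, which holds lipoprotein lipase on capillaries, from 608 and 702 FPKM to 1070 and 1278 FPKM.

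Cell cycle genes rose more often than they fell. Of 71 tested genes 21 rose and 3 fell (median 0.43). Ccnd1, cyclin D1, rose from 17.5 and 20.9 FPKM to 50.2 and 59.9 FPKM and Cdk1, the mitotic kinase, from 12.9 and 12.9 FPKM to 28.5 and 25.1 FPKM. The inhibitors of the cycle did not share a direction, since Cdkn1a rose from 29.8 and 32.7 FPKM to 65.3 and 92.8 FPKM and Cdkn2b from 3.17 and 2.65 FPKM to 14.5 and 33.5 FPKM, and Cdkn1c fell from 168 and 126 FPKM to 55.3 and 32.6 FPKM. Genes on the other strand lie over 23.4% of the exon bases of Ccnd1 and 30.6% of those of Cdkn1c. Marker genes of dividing cells such as Mki67 (8.60 and 7.51 FPKM and 9.78 and 7.30 FPKM) and Top2a (7.92 and 8.54 FPKM and 13.5 and 9.63 FPKM) did not pass the test. In tissue sections the study itself reports significantly less EC proliferation in the mutant metaphysis, and transcript levels here do not measure cell division. Stress gene lists differed. Of 40 tested genes of the oxidative stress and p53 responses 13 rose and 3 fell, with the peroxidase gene Prdx6 at 0.98, the thioredoxin gene Txn1 at 1.13 and the cell death gene Pmaip1 at 2.46 among the former and Sesn1 at -1.42 among the latter. Heat shock genes had 5 up and 4 down of 69, with the inducible genes Hspa1a and Hspa1b down (-1.07 and -1.04), and unfolded protein response genes had 2 up and 7 down of 40. Of the genes that cell isolation is known to induce, 6 rose and 3 fell of 27, and Fos stood at 112 and 141 FPKM and 186 and 106 FPKM. Cyr61, given above as a readout of Yap1 and Taz, is on this list too and had its largest change.

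Interferon-stimulated genes and cytokine receptor genes fell more often than they rose, though most did not pass the test. Of 44 interferon-stimulated genes 18 fell and 1 rose, with a median of -0.56. The summed level of the list was 2397 and 2609 FPKM in the controls and 2339 and 2939 FPKM in the mutants, so the sum did not separate the groups. Iigp1, a GTPase against intracellular parasites, fell from 102 and 82.03 FPKM to 24.7 and 34.3 FPKM, Irgm2 from 31.5 and 31.1 FPKM to 10.2 and 10.4 FPKM, and the transcription factor gene Irf8 from 28.9 and 30.5 FPKM to 9.43 and 11.1 FPKM. The riser was Ifitm2, from 248 and 307 FPKM to 463 and 713 FPKM, and a same-strand gene covers 40.9% of its exon bases. Antigen presentation genes had 5 down and 0 up of 25 by limma, with Tap1 and Tap2, which load peptides, at -0.71 and -0.64, and 24 of the 25 had a negative fold change. Of 20 genes of the NF-kappaB system 7 fell and 0 rose, with Nfkb1 from 62.5 and 53.1 FPKM to 26.5 and 25.3 FPKM and Birc2 from 15.4 and 15.4 FPKM to 5.59 and 4.04 FPKM. Of 49 interleukin and cytokine receptor genes 13 fell and 0 rose. Il6st, the shared receptor chain of the interleukin-6 family, fell from 211 and 238 FPKM to 67.3 and 45.5 FPKM, Osmr, which pairs with it, from 16.5 and 14.6 FPKM to 5.86 and 3.17 FPKM, and the decoy receptor gene Il13ra2 from 54.5 and 41.3 FPKM to 7.78 and 2.73 FPKM. Blood cells carry many of these genes too, so the lower blood cell transcripts given above bear on the same lists, and their part in these counts was not tested.

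Genes for molecules that meet leukocytes moved in both directions, with 3 rising and 4 falling of 17 adhesion genes, 5 rising and 4 falling of 25 chemokine and chemokine receptor genes, and 4 rising and 3 falling of 21 TNF superfamily genes. The selectin genes Sele and Selp fell with Vcam1, from 177 and 135 FPKM to 30.4 and 14.00 FPKM and from 176 and 154 FPKM to 55.5 and 44.8 FPKM, and Icam1 from 134 and 154 FPKM to 84.4 and 82.01 FPKM. Darc, a chemokine-binding receptor gene of venules, fell from 439 and 438 FPKM to 154 and 154 FPKM. The chemokine gene Ccl2, which draws monocytes, rose from 1.41 and 3.69 FPKM to 16.8 and 53.3 FPKM, the scavenging chemokine receptor gene Ackr3 from 4.80 and 7.78 FPKM to 21.1 and 47.6 FPKM and the niche factor genes Cxcl12 and Kitl from 22.2 and 29.8 FPKM to 40.05 and 41.4 FPKM and from 15.2 and 21.3 FPKM to 45.6 and 36.3 FPKM. Cxcl10, which interferon induces, fell from 15.7 and 26.98 FPKM to 4.18 and 1.19 FPKM. In the TNF superfamily, Tnfrsf12a, the receptor for Tweak, rose from 8.35 and 9.60 FPKM to 37.4 and 57.6 FPKM and Cd40 from 7.20 and 8.24 FPKM to 17.2 and 19.3 FPKM. Complement genes had 5 up and 5 down of 20, where the cell surface inhibitor gene Cd55 fell from 48.1 and 43.2 FPKM to 11.1 and 8.61 FPKM and the clusterin gene Clu rose from 7.31 and 12.9 FPKM to 37.9 and 61.5 FPKM.

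Genes for uptake and breakdown, an activity of sinusoidal ECs, had the lowest median of the functional families with 10 or more tested members. Of 14 scavenger receptor genes 9 fell and 1 rose, with a median of -1.06. Mrc1, on chromosome 2 of GRCm38 from 14229392 to 14332057, fell from 151 and 137 FPKM to 25.2 and 12.4 FPKM (log2 fold change -2.95, SE 0.32), the hyaluronan receptor gene Stab2 from 123 and 179 FPKM to 25.8 and 13.9 FPKM, the antibody receptor gene Fcgr2b from 9.09 and 6.55 FPKM to 1.24 and 1.41 FPKM and the abundant neonatal antibody receptor gene Fcgrt from 1123 and 1027 FPKM to 404 and 306 FPKM. The endocytic adaptor gene Dab2 fell from 93.7 and 83.5 FPKM to 44.8 and 26.1 FPKM. Mrc1 and Msr1 are expressed by macrophages as well. Of 14 tested macrophage markers 10 had a negative fold change, with a median of -0.56, 1 fell and 0 rose by limma. Their sums, given above, were lower in the mutants, and their part in the scavenger receptor counts was not tested. Serpin and cathepsin genes had 7 rising and 12 falling of 30. Lysosomal protease genes that fell included Ctsl, from 1153 and 957 FPKM to 307 and 408 FPKM, Ctsb from 621 and 583 FPKM to 324 and 297 FPKM and Ctsd from 572 and 543 FPKM to 283 and 253 FPKM, and the serpin genes Serpina3f and Serpina3g fell too (-2.85 and -2.60). Overlaps bear on 2 of the cathepsins, since 26.9% of the exon bases of Ctsl lie over a gene on the other strand and 34.4% of those of Ctsd over a gene on the same strand. The selenium carrier gene Sepp1 was among the most abundant genes and fell from 3072 and 2847 FPKM to 863 and 581 FPKM, and Gpx3, a secreted selenoprotein gene, rose from 8.09 and 5.29 FPKM to 39.02 and 98.05 FPKM. Axl, a TAM receptor gene for dead cells, fell from 30.6 and 30.3 FPKM to 6.95 and 5.75 FPKM.

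Transporter genes moved in both directions. Of 187 solute carrier genes 18 rose and 30 fell. The fatty acid transporter gene Slc27a1 fell from 14.4 and 10.9 FPKM to 1.71 and 2.08 FPKM, the copper transporter gene Slc31a1 from 87.1 and 86.5 FPKM to 37.95 and 26.00 FPKM and the nucleoside transporter gene Slc29a1 from 322 and 319 FPKM to 176 and 126 FPKM. Slc35f1, an orphan family member, rose from 0.244 and 0.136 FPKM to 8.31 and 7.44 FPKM and the glucose transporter gene Slc2a1 from 24.6 and 24.6 FPKM to 38.9 and 48.8 FPKM. Of 24 amino acid transporter genes 4 rose and 4 fell, with the leucine carrier gene Slc7a5 up (0.84) and Slc7a8 down (-1.94). Of 23 ABC transporter genes 2 rose and 5 fell. The lipid transporter genes Abca1 and Abca3 were those that rose, by 0.62 and 0.60 on the log2 scale, and the drug efflux gene Abcg2 went from 121 and 98.7 FPKM to 58.2 and 42.1 FPKM. The orphan and adhesion G protein-coupled receptors had 4 up and 10 down of 33. Gpr182, a chemokine-binding receptor gene of sinusoidal and lymphatic ECs, fell from 206 and 185 FPKM to 43.96 and 19.1 FPKM, Gpr126 from 16.5 and 18.6 FPKM to 3.34 and 2.47 FPKM and Gpr97 from 130.4 and 120.2 FPKM to 31.3 and 27.3 FPKM.

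Guidance genes had 1 rising and 2 falling of 18 for semaphorins and their receptors, 0 rising and 2 falling of 10 for ephrins and theirs, and 2 rising and 2 falling of 9 for netrins, slits and theirs. Besides Sema3a, the receptor gene Unc5a fell from 11.9 and 15.2 FPKM to 2.86 and 3.52 FPKM, Flrt3 from 22.4 and 22.9 FPKM to 6.86 and 3.10 FPKM and Ephb4, a venous marker, from 152 and 202 FPKM to 112 and 93.8 FPKM. Netrin 4, Ntn4, a matrix-bound guidance protein gene, rose from 0.537 and 1.17 FPKM to 7.08 and 11.5 FPKM. Transcription factor genes of the Sox, Fox, Hox, Gata, Ets, Tead and related families moved at about the rate of all genes, with 8 up and 7 down of 73. Maf, which sinusoidal ECs and macrophages use, fell from 7.46 and 6.22 FPKM to 2.51 and 2.36 FPKM, and the venous factor gene Nr2f2 from 30.5 and 26.1 FPKM to 12.4 and 10.6 FPKM. Sox17, an arterial factor gene, rose from 34.3 and 42.96 FPKM to 66.4 and 60.5 FPKM, Meox2 from 2.22 and 3.98 FPKM to 15.5 and 17.04 FPKM, as its relative Meox1 did, and Etv4, a factor that growth factor signals induce, listed at 0 in a control, from 0 and 0.163 FPKM to 2.73 and 3.30 FPKM. Krueppel-like factor genes had 1 up and 1 down of 15, the latter being the erythroid Klf1, and Klf2 and Klf4 stood at 124 and 143 FPKM and 138 and 125 FPKM and at 11.3 and 15.8 FPKM and 16.8 and 15.5 FPKM.

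Other lists gave these counts of genes past the test. Replication histone genes had 6 rising and 0 falling of 17, and since these genes are near-identical copies their single values are uncertain. They are short, with a median of 704 exon bases, and with the exon length trend removed 3 rose. Genes of sphingosine phosphate signaling had 2 rising and 4 falling of 15, with log2 fold changes of 0.67 for the receptor gene S1pr1 and -1.15 for the phosphatase gene Sgpp1. Genes that hold back ERK signaling had 5 rising and 2 falling of 24, with Spry4 at 1.22 and Errfi1 at 1.46. Selenoprotein genes had 4 rising and 1 falling of 20, imprinted growth genes 3 rising and 1 falling of 13, and genes of arterial, venous and lymphatic identity 7 rising and 3 falling of 29. Genes of neurons and secretory granules, among them Chga and Gpm6a, had 5 rising and 4 falling of 14, blood stem cell niche factors 4 rising and 1 falling of 13, VEGF ligands and receptors 1 rising and 4 falling of 9, and TAM receptors with their ligands 0 rising and 2 falling of 4.

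The genes that changed were then looked up in the comparison of ECs from the marrow cavity (bmECs) and from the metaphysis (mpECs), 3 libraries each, which shares no library with this one and is given as bmECs minus mpECs. Of the 10471 genes tested in both, 928 (8.86%) were higher in bmECs and 845 (8.07%) lower there, with an adjusted p under 0.05 and a fold change over 0.5 in size. Of the 151 genes lower in Lats2 cKO at 0.01, 141 were tested there, and 112 of them (79.4%) were higher in bmECs and 3 lower. Of the 106 higher genes 87 were tested there, and 54 of them (62.1%) were lower in bmECs and 5 higher. At 0.05 the same went for 426 of 1090 lower genes (39.1%), which are 45.9% of the genes higher in bmECs, and for 313 of 1215 higher genes (25.8%), which are 37.0% of the genes lower in bmECs. Of the 151 lower genes at 0.01, 7 were on the blood cell lists. Without them the share that was higher in bmECs was 111 of 134 (82.8%). So few genes could hardly move the share, and the part of blood cell genes outside those lists was not tested. Rgs4 had 111 to 139 FPKM in mpECs and 790 to 1166 FPKM in bmECs (log2 fold change 3.03) and Dnase1l3 24.6 to 39.9 FPKM and 193 to 319 FPKM (2.93). Among the genes that rose, Apln had 22.9 to 25.9 FPKM in mpECs and 1.04 to 1.85 FPKM in bmECs (-3.39) and Edn1 7.05 to 9.40 FPKM and 0.399 to 1.76 FPKM (-2.23).

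Some genes did not follow the regional pattern. Angpt2 was at 5.83 to 11.9 FPKM in mpECs and 7.11 to 14.1 FPKM in bmECs, a log2 difference of 0.067 (adjusted p = 0.894). Adm was higher in bmECs by 0.81 (adjusted p = 0.031), and Cyr61 had 0.40 (adjusted p = 0.547). Among genes that fell, Crispld1 was at -0.27 (adjusted p = 0.0614) and the erythroid gene Car1 at 0.14 (adjusted p = 0.689). Families followed it unequally. Of the collagen genes tested there 9 of 11 were lower in bmECs and of the cell cycle genes 44 of 70. Col1a1 and Col1a2, on the osteoblast list, were lower in bmECs (-4.99 and -3.72) but did not pass the test in the Lats2 comparison. Osteoblast genes were lower in bmECs in 5 of 7 cases, and the part of osteoblast transcripts in the collagen count was not tested. By contrast, of the ribosomal protein genes, 65 of which rose with the deletion, 1 of 77 was lower in bmECs. Of the interferon-stimulated genes, 18 of which fell, 6 of 44 were higher in bmECs. The Lats2 libraries were not split by region, so a change in the share of ECs from each region and a change within ECs cannot be told apart.

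**Figure D5:**
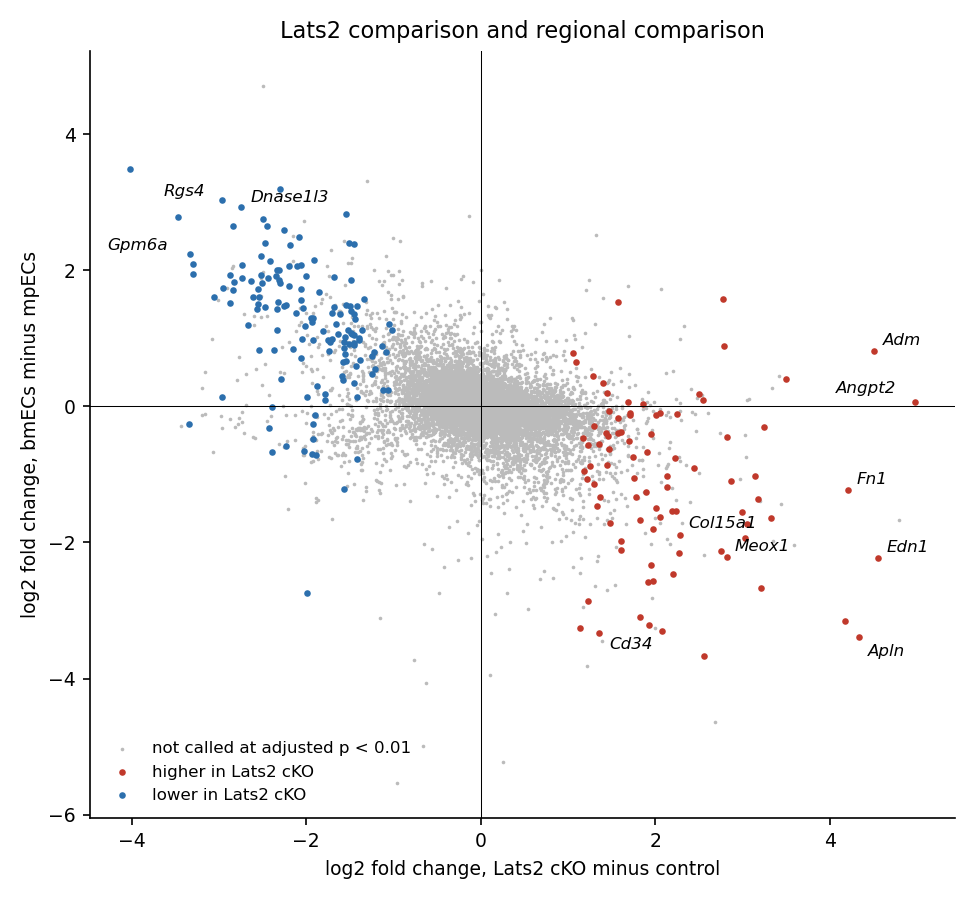
Log2 fold change of Lats2 cKO minus control (x axis) against that of bmECs minus mpECs (y axis) for 10471 genes tested in both tables, with genes past the 0.01 threshold of the Lats2 comparison in red (higher) and blue (lower). Of the blue genes 112 of 141 were higher in bmECs and of the red genes 54 of 87 were lower.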

How the data were processed

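RNA came from FACS-sorted ECs and was sequenced as paired-end TruSeq Stranded Total RNA libraries. The authors aligned reads to mm10 with TopHat, counted them with HTSeq 0.6.1 and deposited FPKM values. How counts became FPKM, and the strand setting, are not given in the sources used here. Of 38926 rows, 4 with a repeated name were left out. Genes averaging 1 FPKM or more were tested on log2(FPKM + 1) with limma 3.58.1 (R 4.3.3), with a mean-variance trend and Benjamini-Hochberg adjustment over 12451 genes. Genes were called at an adjusted p under 0.01 and a fold change over 0.5 in size. The second threshold of 0.05, the fit on recovered reads and the length correction were added after seeing the data. The members, gene lists and markers were chosen with earlier results of these data known.

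The genes named were taken from Lats2, Lats1, Yap1, Wwtr1 and the 4 marks, the 25 largest changes a direction among genes averaging 5 FPKM or more, and in each list the 5 largest called changes a direction and the 4 most abundant genes. Genes named outside this rule, after their values were seen, were Acvr1, Dab2, Emcn, F2r, F2rl3, Fgfr1, Fos, Gm23935, Kit, Klf4, Lamc1, Met, Mki67, Nos2, Nos3, Npr2, Pdgfrb, Prdx6, Procr, Ramp3, Ret, Slc2a1, Slc31a1, Srf, Tagln and Top2a. Within lists this rule was applied at 0.01, as first written, and also at 0.05, which was added after seeing the data. Positions and overlaps are those of GENCODE M21. On simulated data with 12302 genes in the Lats2 comparison, the changed genes were drawn from those averaging 5 FPKM or more. At 0.05, 35% of genes changed by 1 on the log2 scale and 90% of those changed by 2 were recovered. At 0.01 the shares were 1% and 76%. An exact permutation test of 2 against 2 libraries cannot give a p under 0.333. The Yap1 and Taz knockout libraries were not used here, and not every gene or list that met these rules is reported here.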

Additional observations from a re-analysis of the deposited data

How the results depend on the processing

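The counts at 0.01 depended on the setting, and for the higher and lower genes in turn they were 377 and 323 among genes averaging 5 FPKM or more, 216 and 252 with quantile normalization, 563 and 537 with voom on recovered reads, 198 and 261 with the exon length trend removed, and 0 and 0 both without a filter on low values and without the mean-variance trend by limma. The counts at 0.05 were 1427 and 1218, against 719 and 669 without the filter. Without the filter 5514 genes and without the trend 4683 genes had an unadjusted p under 0.05. Leaving out a library gave 0 to 0 genes in either direction at 0.01, and at 0.05 from 0 to 1441 higher and from 0 to 1255 lower genes, with 0 in both directions where either control was left out. The cause was not tested. The percentage of lower genes that were higher in bmECs was then 34.98 to 59.95, and that of higher genes that were lower in bmECs was 21.85 to 42.44, with the highest of each without cKO replicate 2. Of 73 gene lists 39 had a positive median, against 36 to 42 in the 15 alternative fits, and of 41 lists with a median of at least 0.3 in size 40 kept their sign in every fit.

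With the replicate number as a block, 316 genes were higher and 296 lower at 0.01. Deviations of same-numbered libraries correlated by 0.065. With 2 libraries a group this cannot show whether same-numbered libraries shared a litter or a batch, and the labels give only the replicate number. Of 252 named genes under 0.05, 194 stayed so in all 11 alternatives with 4 libraries in which they had a value. Groups of 2 libraries and 4729880 to 7067607 reads limit what could be called among genes of low level.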
